A study of Mus musculus with 6 samples.

Results

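The stretch of mouse chromosome 2 around Tcf15 was described here, probe by probe, in embryos with and without Paraxis, the protein that Tcf15 encodes. The members were the non-control probes of an Agilent two-colour array whose coordinates lay in chr2:136974712-166974712 of the mm9 build, which is 15 Mb to each side of the Tcf15 probe. The Tcf15 probe itself and the probes of Pax1, Id1 and Eya2 were left out by that rule, 6 probes in all. There were 593 member probes of 408 gene names among 41174 probes on the array. After a filter on dim probes, 448 of them, for 302 gene names, could be tested, and 1831 tested probes of chromosome 2 outside the segment served for comparison. Of the members that were not tested, 139 were too dim in both genotypes and 6 had fewer than 2 usable pairs, and 104 were well above background in no measurement.

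Both genotypes, wild type (WT) and Paraxis-/-, carry the strain label C57BL/6J and were collected at embryonic day 9.5. Tissue was the anterior presomitic mesoderm with somites I to IV, and each sample was a pool from 5 embryos, with 3 pools per genotype. Every WT pool was hybridised against one Paraxis-/- pool on a pair of arrays with the dyes swapped, so the results rest on 3 pairs. The letters A, B and C used for them are those of their WT pools. Pair A lay on one slide and pairs B and C on another. Not given in the labels are the deleted part of Tcf15, the way the allele was made and the number of generations it was bred to C57BL/6J. The pools come from whole dissected tissue, so fewer cells of a type and less RNA per cell cannot be told apart in any value below.

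Paraxis is a basic helix-loop-helix transcription factor of the paraxial mesoderm, known for its part in turning new somites into epithelial blocks. Genes that lie near a targeted locus are inherited together with it, and the length of chromosome that stays linked depends on crossing-over during breeding, so the neighbourhood of a targeted gene is commonly examined on its own. Each array probe is a DNA strand of 60 bases that reports the signal of its own stretch of a transcript, and several probes of one gene are separate readings of different stretches.

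The Tcf15 probe, outside the member set, checked the labels. Its log2 level was 15.04, 15.24 and 15.23 in the WT pools and 9.81, 9.76 and 9.71 in the Paraxis-/- pools of pairs A, B and C. It remained well above background in all 6 measurements of the Paraxis-/- pools, and whether the probe lies in the deleted part is not given in the sources used here. The array held between 27080 and 31795 spots well above background per channel, of 43379. Among markers of other cells, the 10 primitive blood genes all had ratios above 0, with a median log2 ratio of 0.52 and none past the adjusted threshold in limma, but the medians by pair were 0.50, 0.97 and -0.09. The log2 of their summed signal was between 16.54 and 17.31 in WT and between 17.30 and 17.90 in Paraxis-/- pools. The brightest genes weigh most in such a sum, and Hbb-bh1 alone had mean log2 levels of 16.09 and 16.58. No marker was below background in all measurements of either genotype. All 6 surface ectoderm markers and all 5 of notochord, floor plate and endoderm had ratios above 0 too, with medians of 0.30 (0.73, 0.09 and 0.14 by pair) and 0.22 (0.49, 0.01 and 0.37). For surface ectoderm the log2 of the summed signal was 14.18 to 14.88 in WT and 14.85 to 15.15 in Paraxis-/- pools. For the other list it was 12.24 to 12.82 and 12.76 to 12.84. Of the 7 endothelial markers 3 had ratios above 0, and the median was -0.09, with Etv2 at 1.54. The 14 tested paraxial mesoderm markers, of the tissue itself, went both ways, from -1.60 for Meox2 to 0.69 for Tbx6, and 6 had an unadjusted p below 0.05 in limma. Their median log2 ratio was -0.03. The log2 of their summed signal was 15.94 to 16.10 in WT and 15.77 to 16.25 in Paraxis-/- pools. The median log2 level was 11.01 in WT and 9.97 in Paraxis-/- tissue. Meox2, at 11.615 and 10.02, lies at the middle of that order, so the gap between these medians does not describe the whole list. The part of blood or of other cells in the member ratios was not tested.

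The probe sequences below are those of the genes on which the results turn, shown because the probes of one gene gave different ratios. The first 30 bases of each probe are printed as the array design gives them, 5′ to 3′, with mm9 coordinates of the whole probe. For Snhg11, a non-coding host gene of small nucleolar RNAs transcribed from the plus strand, the 5 probes follow in order of position, from chr2:158206523-158206582 through chr2:158206858-158206917, chr2:158210379-158210438 and chr2:158211327-158211386 to chr2:158211554-158211613.
Snhg11 A_51_P385114: atcagtgtggagcgaccagagagcatgacc
Snhg11 A_52_P541118: agagccacagaatgccacgtggcactgagg
Snhg11 A_51_P111655: ctgtcatatcttcaacttgactttgtcaga
Snhg11 A_52_P70888: aggacacagtataacattgtattgctgtgc
Snhg11 A_51_P267933: gaataagtgatgtatggcttgctacgattc

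The transcript AK047604, known only by its accession (chr2:156558546-156558605, plus strand), Zcchc3 (chr2:152238866-152238925, minus strand), the pair of Rprd1b probes (chr2:157869169-157869228 and chr2:157902024-157902083, plus strand), the pair of Sdc4 probes (chr2:164250116-164250175 and chr2:164251211-164251270, minus strand) and the 3 tested Itch probes (chr2:154967640-154967699, chr2:155028148-155028207 and chr2:155052451-155052514, plus strand) are shown in the same way.
AK047604 A_51_P301627: ctagtacaataatgaacagtcgggttatct
Zcchc3 A_51_P479132: gtactgggcccaacgcgggatagacactct
Rprd1b A_52_P349298: tttagaaagattgctgaacatctggcaaga
Rprd1b A_51_P229633: tgaagtccaaaagccataagaaggaattca
Sdc4 A_51_P323248: tggaagtcattcctcggttgcactagccac
Sdc4 A_52_P93467: ttgttccaaatttccagaatagaatatagg
Itch A_52_P177732: tagcttctattccttcaatgttggtctaac
Itch A_52_P209852: tcattagataacgatgtcttcggttgtcca
Itch A_51_P243503: tagcgattttccttaaatctggactaagtt

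Not every pair of probes is independent. Among neighbouring probes of one transcript in the segment, 8 pairs share bases. In Srxn1 the last 30 bases of one probe (chr2:151935185-151935244) and the first 30 of the next (chr2:151935232-151935291), both on the plus strand, have 13 bases in common, given in capitals.
Srxn1 A_52_P593200: ctttatgatagcactatATGAACTATGTAC
Srxn1 A_51_P330125: ATGAACTATGTACtaggaagtaaaggaaaa

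In the segment, 2 probes passed an adjusted p of 0.05 in limma's test of the pair ratios, and both were higher in Paraxis-/- tissue: Snhg11 A_51_P267933 and AK047604. Over all tested probes the share past that threshold was 0.0141%, which is 4 probes of 28422, and the other two were the probes of Tcf15 and Pax1. Ratios of at least 1.5-fold in one direction in all 3 pairs were found for 7 member probes, 5 higher and 2 lower, which is 1.56% of the 448. One of them, Snhg11 A_51_P111655, passed the filter through its Paraxis-/- measurements only, and 6 probes met the rule among those well above background in all measurements of both genotypes. With processed signals or the deposited ratios the count was 17, and with the local background subtracted 14. Beside the 1.56%, the share was 0.164% on chromosome 2 outside the segment (3 probes) and 0.148% over the array. Without any one of the pairs A, B or C, 0 member probes passed the adjusted threshold, while 49 to 69 had an unadjusted p below 0.05 in the same limma fits. With the 6 arrays fitted singly and the pair as a replicate block, 10 member probes passed. The count over the array in that fit is not given here. An unadjusted p below 0.05 was met in it by 18.1% of members and by 6.86% of probes outside the segment (limma).

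**Figure D1:**
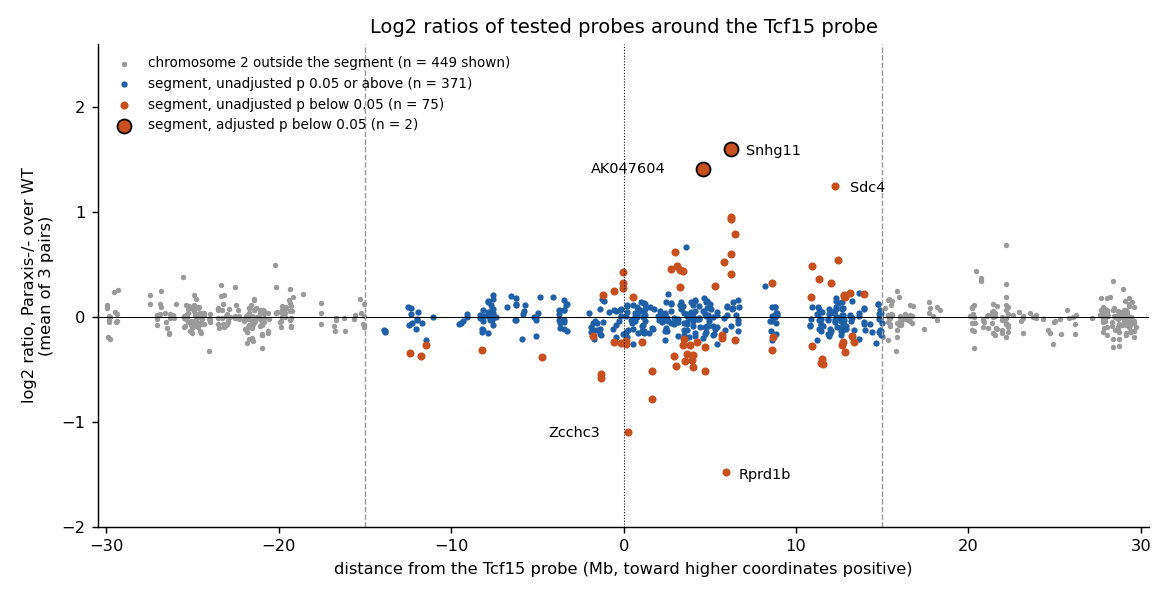
Mean log2 ratio (Paraxis-/- over WT, 3 pairs) of each tested probe against its distance in Mb from the Tcf15 probe, with dashed lines at the ends of the segment and grey points for chromosome 2 outside it. The probes past 1.5-fold in all pairs lie at 0.26 Mb and between 4.58 and 12.28 Mb on the side of higher coordinates, and the 2 ringed points, Snhg11 and AK047604, passed the adjusted threshold.

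Snhg11, 6.23 to 6.24 Mb from the Tcf15 probe, was higher in Paraxis-/- tissue at each of its 5 probes. Probe A_51_P267933 had log2 levels of 7.81, 7.92 and 7.87 in the WT pools and 9.43, 9.47 and 9.48 in the Paraxis-/- pools. Every Paraxis-/- pool was above every WT pool. The log2 ratio was 1.60 (SE 0.07, n = 3 pairs), a 3.02-fold difference, with an adjusted p of 0.0174 in limma. Each SE given here is limma's moderated standard error, which draws on the spread of all tested probes and not on the 3 pairs alone. The pairs gave 1.63, 1.55 and 1.61, and the 6 single arrays lay between 1.33 and 1.92. Without pair A, B or C its adjusted p was 0.0578, 0.894 and 0.097 in limma, with log2 ratios from 1.58 to 1.62.

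The other 4 Snhg11 probes had the same sign in all pairs without passing the adjusted threshold. From the lowest coordinate upward, the mean log2 ratios of the 5 probes were 0.41 (SE 0.08), 0.60 (SE 0.11), 0.95 (SE 0.12), 0.94 (SE 0.08) and 1.60 (SE 0.07). The third of these values is a measured ratio that stands for a lower bound, so the probes have no settled order, and differences between them were not tested. With the scanner's processed signals, which are those of the deposited ratios too, the 5 values were 0.84, 0.95, 3.83, 1.46 and 2.04. WT and Paraxis-/- pools did not overlap at any of the 5. Probe A_51_P111655 was not well above background in any WT measurement (log2 6.12, 6.13 and 6.12) and was in all 6 Paraxis-/- measurements (7.39, 6.93 and 6.90), which makes it at least 1.91-fold higher. That bound sets the mean of the Paraxis-/- pools against, for each WT pool, the higher of its own signal and the lowest signal among probes well above background. It makes no allowance for the spread between pairs, and without pair A the log2 ratio of this probe was 0.79. The adjusted p of the probe in limma was 0.315.

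AK047604, a transcript at 4.58 Mb with 1 probe, was the second member past the threshold. Its log2 levels were 7.64, 8.01 and 7.83 in WT pools and 9.07, 9.38 and 9.24 in Paraxis-/- pools. The groups did not overlap. The log2 ratio was 1.41 (SE 0.07, n = 3), a 2.65-fold difference, with an adjusted p of 0.024 in limma. Within pair A the arrays of opposite dye gave 0.58 and 2.28, while the arrays of pairs B and C lay between 1.13 and 1.62. With the 6 arrays fitted singly and the pair as a replicate block, the SE was 0.21. Without pair A, B or C, the adjusted p in limma was 0.0578, 0.995 and 0.138.

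Of the 2 probes that were lower by at least 1.5-fold in all pairs, the nearer to Tcf15 was that of Zcchc3, a CCHC zinc-finger protein that binds nucleic acids, at 0.26 Mb. The WT levels were 12.33, 12.08 and 11.92 and the Paraxis-/- levels 11.07, 11.09 and 10.89 on the log2 scale. The Paraxis-/- pools were all below the WT pools. The log2 ratio was -1.09 (SE 0.08), with an adjusted p of 0.133 in limma, and the 6 arrays gave between -1.46 and -0.92.

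Rprd1b, whose product attaches to the C-terminal repeats of RNA polymerase II, was read at 5.89 and 5.93 Mb by 2 probes with unlike ratios. Probe A_51_P229633 had WT levels of 12.20, 12.06 and 11.95 and Paraxis-/- levels of 10.59, 10.34 and 10.84, a log2 ratio of -1.48 (SE 0.13, limma adjusted p 0.175). Its groups did not overlap, and the arrays lay between -1.84 and -1.01. Probe A_52_P349298, at lower coordinates, gave pair ratios of -0.17, -0.17 and -0.03, and its groups overlapped.

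Sdc4, the cell-surface heparan sulphate proteoglycan syndecan-4, showed the same kind of split at 12.28 Mb. At probe A_52_P93467 the WT levels were 7.63, 7.01 and 6.61 and the Paraxis-/- levels 8.70, 8.02 and 8.27. Paraxis-/- pools were higher throughout, by pair ratios of 1.07, 1.01 and 1.66 and a mean of 1.24 (SE 0.15, limma adjusted p 0.306). That mean was 2.01 with processed signals and 2.09 with the local background subtracted. At the other probe, A_51_P323248, the pair ratios were 0.09, -0.09 and -0.15, with overlapping groups.

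**Figure D2:**
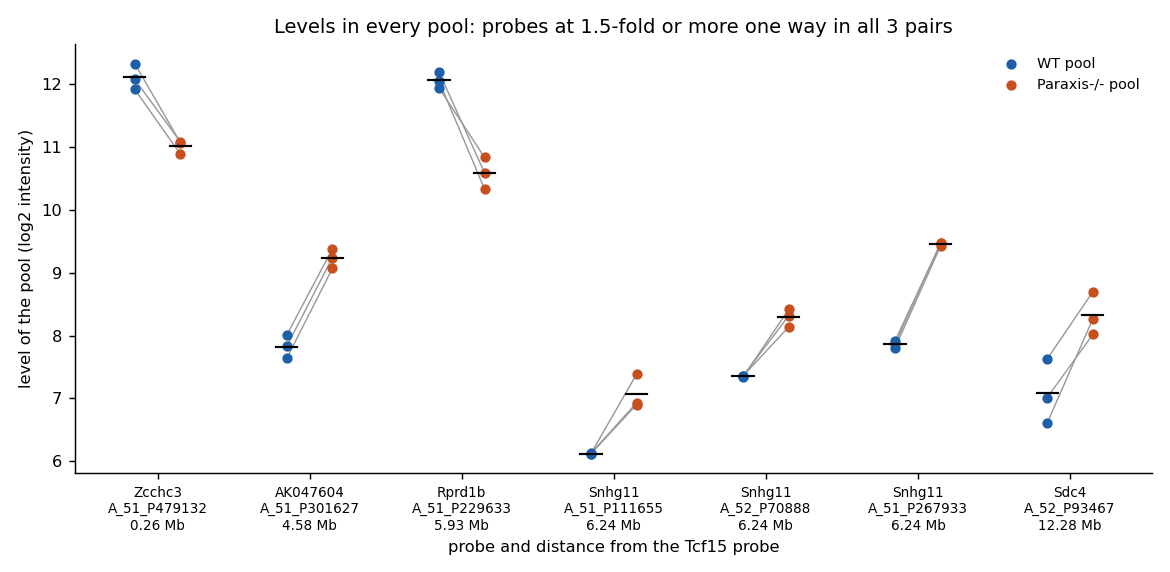
Log2 level in every pool (blue, WT; orange, Paraxis-/-) for the 7 member probes at 1.5-fold or more in one direction in all 3 pairs, in order of distance from the Tcf15 probe. Grey lines join the pools of a pair and black bars are means, and the genotypes do not overlap at any of the 7 probes.

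Smaller ratios were also more often shared by the pairs in the segment. An unadjusted p below 0.05, a call rule added after the values were seen, was met by 77 of the 448 member probes in limma, for 63 gene names, against 4.48% outside the segment on chromosome 2 and 5.67% over the array. The member share was 17.2%, with 33 probes higher and 44 lower. On the 19 other chromosomes the share ran from 3.78% to 7.38%. Without pair B the member count was 49, which is 11%, beside 3.73% outside the segment.

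The signs and the pool levels gave the same picture as those p-values, from which they are not independent. All 3 pairs had one sign at 37.3% of member probes, against 25.5% outside the segment and 26.6% over the array. All 6 arrays had one sign at 15.4%, against 6.77% and 6.41%. The pools of the genotypes did not overlap at 65 member probes, 14.5%, against 6.34% outside and 6.27% over the array.

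The median absolute log2 ratio was 0.093 in the segment and 0.062 outside it, so most member probes differed little between genotypes. The median signed ratio was -0.01, over ratios that loess had centred on each array. Across member probes, the ratios of pairs A and B had a Pearson r of 0.59 (Spearman 0.42, n = 446 probes), those of A and C 0.42 (0.19, n = 447) and those of B and C 0.57 (0.34, n = 447). Outside the segment the Pearson values were 0.20, 0.11 and 0.12. Probes are not independent replicates, and pairs B and C share a slide.

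**Figure D3:**
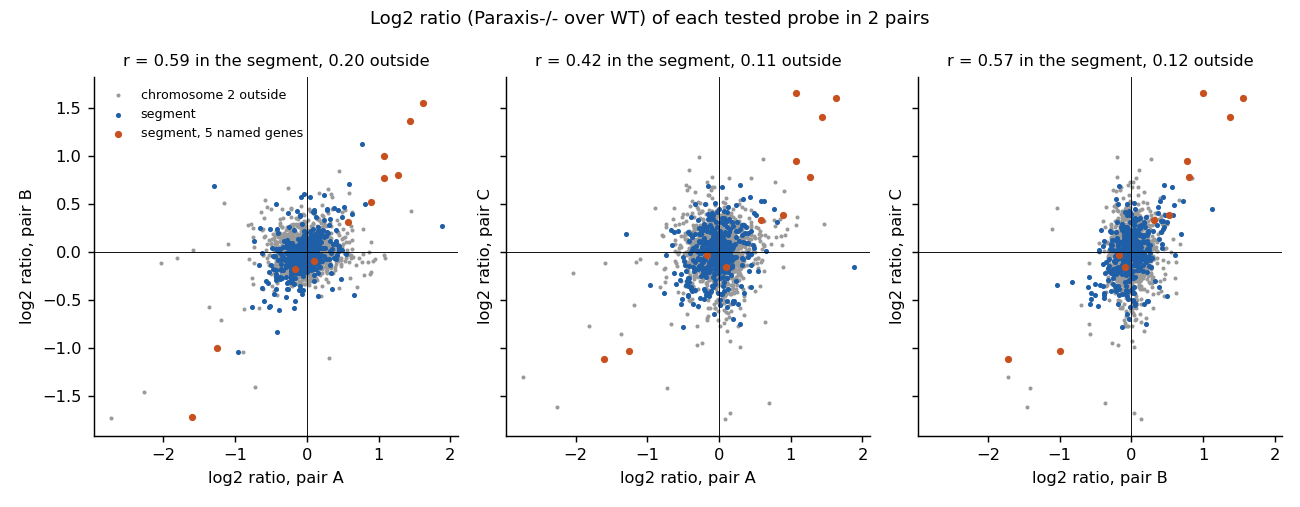
Log2 ratio (Paraxis-/- over WT) of each tested chromosome 2 probe in one pair against another, with grey for probes outside the segment, blue for the segment and orange for the probes of Snhg11, AK047604, Rprd1b, Zcchc3 and Sdc4. Pearson r is 0.59, 0.42 and 0.57 in the segment and 0.20, 0.11 and 0.12 outside, and the outermost points of the segment in each panel include orange ones, while the second Rprd1b and Sdc4 probes lie near 0.

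The 5 genes Snhg11, AK047604, Rprd1b, Zcchc3 and Sdc4 did not make up the whole difference. Without them 68 of 437 probes, 15.6%, had an unadjusted p below 0.05 in limma, 0 reached 1.5-fold in all pairs, and the Pearson r between pairs was 0.39, 0.18 and 0.37. The member share was above that outside the segment at every level of signal. With all tested probes of the array divided into 3 equal groups, dim, middle and bright, the member shares were 9.52%, 23.3% and 18.5%, and those outside the segment were 2.80%, 4.92% and 5.87%. The members' median log2 level was 8.55 and their median GC content 43.3%, and probes outside the segment had 8.45 and 41.7%.

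The probes with an unadjusted p below 0.05 were unevenly spread along the segment. On the side of higher coordinates there were 62 of 328 (18.9%), and on the side of lower coordinates 15 of 120. Within 1 Mb of the Tcf15 probe the counts were 6 of 17 at lower and 4 of 28 at higher coordinates. At higher coordinates the count was 3 of 40 from 1 to 2.5 Mb and 20 of 89 from 2.5 to 5 Mb. From 5 to 7.5 Mb it was 12 of 37. The next 3 bins outward had 3 of 20, 10 of 51 and 10 of 63. At lower coordinates the counts were 4 of 21 from 1 to 2.5 Mb, and 1 of 18, 0 of 16 and 1 of 30 in the 3 bins from there to 10 Mb. In the outermost bins of that side, from 10 to 15 Mb, they were 3 of 14 and then 0 of 4, so the counts did not fall steadily with distance. Differences between these distances were not tested, and probes of one gene fall in one bin.

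Just beyond the segment the share was close to that of the array, with 12 of 228 probes in the next 15 Mb at lower and 11 of 221 at higher coordinates. At the end of the window at lower coordinates, the last tested probe inside, TC1672661, had a log2 ratio of -0.13 and the first outside, that of Jag1, -0.09.

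**Figure D4:**
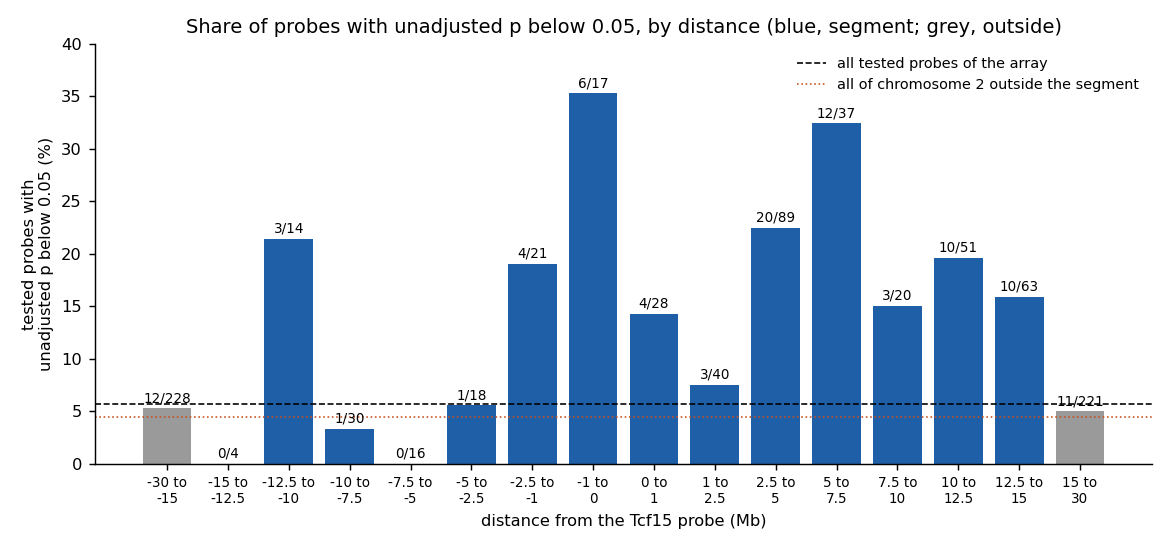
Percent of tested probes with an unadjusted p below 0.05 (limma) by distance in Mb from the Tcf15 probe, with the count of probes over each bar, blue for the segment and grey for the next 15 Mb on each side. The dashed line is the share over the array (5.67%) and the dotted line that of chromosome 2 outside the segment (4.48%), and the tallest bars are 6 of 17 probes at 0 to 1 Mb below and 12 of 37 at 5 to 7.5 Mb above.

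Within 0.5 Mb of the Tcf15 probe lay 35 probes of 23 gene names, of which 25 were tested. An unadjusted p below 0.05 was met by 7 of them, those of Fam110a, Srxn1, Csnk2a1 and Zcchc3. The other 18 had log2 ratios between -0.21 and 0.11, among them probes of Psmf1, Rspo4, Angpt4, Slc52a3, Scrt2, Tbc1d20, Rbck1, Trib3, Sox12, Defb19 and Defb36.

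Srxn1 encodes sulfiredoxin, which restores oxidised peroxiredoxins, and was the gene nearest to the Tcf15 probe, at -0.04 Mb. Probe A_51_P330125 had WT levels of 7.14, 7.13 and 7.11 and Paraxis-/- levels of 7.625, 7.504 and 7.528, a log2 ratio of 0.42 (SE 0.07, limma adjusted p 0.467). The neighbour that shares 13 bases with it gave 0.32, and the third probe, more than 1 kb away, gave 0.28. The genotypes did not overlap at any of the 3 probes. With processed signals A_51_P330125 gave 0.83 and its neighbour 0.92.

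Csnk2a1, the catalytic alpha subunit of casein kinase 2, lies on the other side at 0.12 to 0.13 Mb. Its 3 probes had mean log2 ratios of -0.26, -0.14 and -0.23, and WT and Paraxis-/- pools overlapped at all 3. Fam110a had pair ratios of -0.28, -0.32 and -0.14 at its probe. Scrt2, a zinc-finger transcription factor of neural cells at -0.05 Mb, had -0.25, 0.01 and -0.25. Sox12, an HMG-box transcription factor at 0.25 Mb, had -0.28, -0.08 and -0.01. Neither of these transcription factors had an unadjusted p below 0.05.

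Farther toward lower coordinates, Pygb at -1.32 Mb encodes brain glycogen phosphorylase, which releases glucose units from glycogen. At probe A_51_P485810 the WT levels were 8.63, 8.43 and 8.31 and the Paraxis-/- levels 8.10, 7.86 and 7.77. The log2 ratio was -0.55 (SE 0.07, limma adjusted p 0.306). Its second probe gave -0.77, -0.57 and -0.42. Both probes were thus lower in every pair, with genotypes that did not overlap.

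Around 1.62 Mb at higher coordinates, Mapre1 encodes EB1, a protein of growing microtubule ends. Its first probe, A_51_P375714, gave pair ratios of -0.96, -1.04 and -0.34 and its second, A_52_P321225, -0.42, -0.83 and -0.31. The third probe, at the highest coordinates, gave -0.28, -0.14 and 0.11, and its genotypes overlapped. The lowest limma adjusted p of the 3 was 0.565.

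The E3 ubiquitin ligase gene Itch, at 2.99 to 3.08 Mb, had tested probes of opposite sign. Probe A_52_P177732 was not well above background in any WT measurement and was in all 6 of the Paraxis-/- pools, so that it was at least 1.53-fold higher, with measured log2 levels of 6.44, 6.33 and 6.41 against 7.03, 7.05 and 6.95 (limma adjusted p 0.306). Its log2 ratio of 0.61 was 2.57 with processed signals and 2.08 with the local background subtracted. The bound makes no allowance for the spread between pairs, and without pair B this log2 ratio was 0.56. Probe A_52_P209852 had WT levels of 7.97, 7.93 and 8.04 and Paraxis-/- levels of 7.47, 7.80 and 7.26, a log2 ratio of -0.47 (SE 0.13, limma adjusted p 0.825). Probe A_51_P243503 gave pair ratios of 0.43, 0.44 and 0.58. So 2 of the tested Itch probes were higher in all pairs and 1 was lower in all pairs. A further Itch probe between them was well above background in no measurement.

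From 2.5 to 5 Mb, 13 of the 20 probes with an unadjusted p below 0.05 were lower in Paraxis-/- tissue and 7 higher. Eif2s2, the beta subunit of the initiation factor eIF2, had WT levels of 13.01, 13.20 and 13.20 and Paraxis-/- levels of 13.53, 13.67 and 13.59 at probe A_51_P470724. The groups did not overlap there, but its other probes had mean log2 ratios of 0.14 and 0.12, with overlapping groups. Ahcy, which breaks down S-adenosylhomocysteine, had ratios of -0.26, -0.38 and -0.47 at the probe farthest upstream, and means of -0.01 and -0.06 at the other two.

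Between 3.6 and 4.0 Mb, 3 genes named by their p had ratios below 0 at single probes, among other genes of that stretch with ratios near 0, such as Spag4 (0.04 and 0.05) and Cpne1 (0.00 and 0.14). Edem2, which takes part in the degradation of misfolded glycoproteins, had pair ratios of -0.43, -0.38 and -0.44. Eif6, a factor that keeps ribosomal subunits apart, had -0.38, -0.28 and -0.40 at one probe and -0.31, -0.08 and 0.02 at the other. Nfs1, the cysteine desulfurase of iron-sulphur cluster assembly, had WT levels of 11.93, 11.92 and 11.84 and Paraxis-/- levels of 11.46, 11.49 and 11.50. At these probes the genotypes did not overlap, apart from the second Eif6 probe, and the limma adjusted p was 0.467 for Edem2, 0.565 for Eif6 and 0.499 for Nfs1.

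Rbm39, a splicing factor near 4.0 Mb, gave -0.60, -0.50 and -0.33 at probe A_52_P275324. Its other probes gave mean log2 ratios of 0.00 and 0.11. At lower coordinates than these genes, probes of Trp53inp2 and Acss2, an acetyl-CoA synthetase, had log2 ratios of 0.28 and 0.43. The other tested Acss2 probe gave 0.11. The non-coding RNA gene Norad had a log2 ratio of -0.24 (SE 0.07). Another, 5430405H02Rik, gave -0.52 (SE 0.07) at probe A_52_P16346 and -0.09 (SE 0.07) at its other probe.

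From 5 to 7.5 Mb, beside Rprd1b and Snhg11, Vstm2l had WT levels of 8.933, 9.096 and 8.996 and Paraxis-/- levels of 9.555, 9.498 and 9.528. Slc32a1, the vesicular transporter of inhibitory amino acids in neurons, at 6.47 Mb, had WT levels of 6.998, 7.281 and 7.491 and Paraxis-/- levels of 7.768, 8.413 and 7.947. Paraxis-/- pools were above WT pools for both genes, but the Slc32a1 ratio varied between pairs from 0.46 to 1.13. Its mean was 0.79, and 1.38 with processed signals. Src, the tyrosine kinase, had 0.29 at one probe and -0.12 at the other. The neural tube markers had a median log2 ratio of 0.09, with -0.29, 0.11 and 0.34 by pair, and their part in the ratios of Snhg11 and Slc32a1 was not tested.

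Beyond 10 Mb, Pkig, an inhibitor of protein kinase A, had pair ratios of -0.38, -0.61 and -0.36, although its pools overlapped between genotypes. Serinc3, a membrane protein, gave mean log2 ratios of -0.44 and -0.40 at 2 probes and 0.05 at the third. Ift52, part of the transport machinery of cilia, gave 0.48 at one probe and -0.02 at the other. Wfdc2, a secreted protease inhibitor-like protein, had WT levels of 11.01, 11.59 and 11.63 and Paraxis-/- levels of 11.82, 12.10 and 11.95. For Wfdc2 the groups did not overlap, with a mean log2 ratio of 0.54 (SE 0.11, limma adjusted p 0.565). Stk4, a kinase of the Hippo pathway, gave 0.32 at its probe of highest coordinates and -0.18, -0.16 and -0.11 at its other 3.

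Toward lower coordinates beyond 5 Mb, the 4 named probes with an unadjusted p below 0.05 were all lower in Paraxis-/- tissue. They belonged to Rrbp1 (-0.32), a ribosome-binding protein of the endoplasmic reticulum, Flrt3 (-0.27), a transmembrane protein of cell adhesion, Macrod2 (-0.38) and Ism1 (-0.34), a secreted protein. Rrbp1 had 5 tested probes, with log2 ratios between -0.32 and 0.07. The second tested probes of Flrt3, Macrod2 and Ism1 gave -0.22, -0.05 and -0.08.

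In most member genes with several tested probes the mean log2 ratios lay at most 0.5 apart. The median absolute log2 ratio of member probes was only 0.093, so a small range does not show that the probes of a gene agreed. Among the 101 member genes with at least 2 tested probes, the range between the highest and lowest mean log2 ratio had a median of 0.13, against 0.10 for 414 genes of chromosome 2 outside the segment. The range was above 0.5 in 7 member genes (6.93%) and in 4 of those outside (0.966%), with no test of this difference. Those 7 were Rprd1b, Sdc4, Snhg11, Itch, Mapre1, Rbm39 and Stk4.

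Of the 32 member genes with several probes and at least 1 unadjusted p below 0.05, 6 had it at all their tested probes, which were Snhg11, Itch, Pygb, Srxn1, Ctnnbl1 and Mmp9. Outside the segment on chromosome 2 this held for 5 of 40 such genes and over the array for 98 of 787. A probe of Snhg11 and a probe of Itch passed the filter through Paraxis-/- measurements only. The Itch probes differ in sign, and neighbouring Srxn1 probes share 13 bases. The count is thus not one of genes whose independent readings agreed. A tested probe had the opposite sign in 13 of the 32, against 14 of 40 and 258 of 787. A ratio given for a gene with 1 probe, such as Zcchc3 or AK047604, has no second reading on this array.

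**Figure D5:**
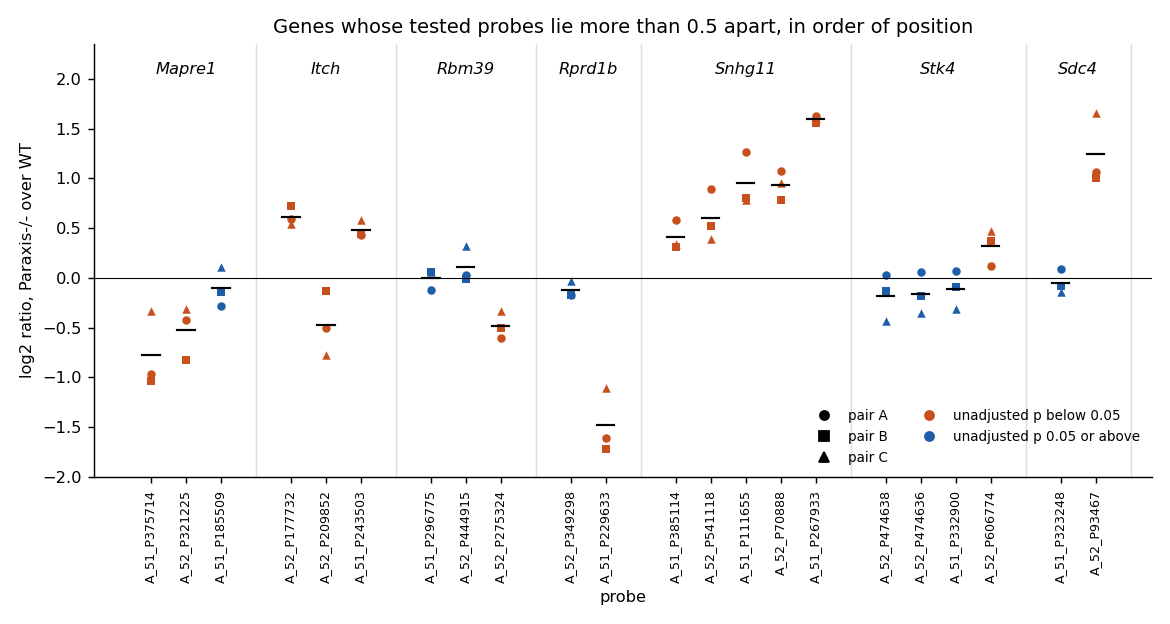
Log2 ratio (Paraxis-/- over WT) in pairs A, B and C for every tested probe of the 7 genes whose probes lie more than 0.5 apart, with black bars for the mean and orange for an unadjusted p below 0.05. The Snhg11 probes all lie above 0, those of Itch on both sides of it, and Rprd1b and Sdc4 each have 1 probe far from 0 and 1 near it.

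By function, the lists of segment genes had medians near 0. The metabolic genes had 12 of 37 tested probes with an unadjusted p below 0.05 (5 higher, 7 lower) and a median log2 ratio of -0.03. The signalling proteins had 10 of 42 (5 higher, 5 lower) and a median of -0.04, and the trafficking and proteolysis genes 10 of 54 (4 higher, 6 lower) and a median of -0.04. The neural and endocrine genes had 8 of 28, with 7 higher, of which 5 were the Snhg11 probes, and a median of 0.01. Slc32a1 was not in that list. The median over all tested probes of the array was -0.003, and 5.67% of them had such a p.

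All 6 such probes among the 34 tested of the RNA and protein synthesis genes were lower, with a list median of -0.03, and they were those of Zcchc3, Rprd1b, Rbm39, Eif6 and both Ctnnbl1 probes. Eif2s2, which that list does not hold, had a probe at 0.46, so the single direction belongs to the list as chosen. The chromatin, replication and division genes had 6 of 41 (2 higher, 4 lower), with a median of 0.01. The transcription factors had 3 of 25, namely Zhx3 (0.32), Plagl2 (-0.24) and Mybl2 (-0.28), with a list median of -0.04. Apart from the Snhg11 probe, no probe of these lists passed the adjusted threshold.

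The clustered gene families of the segment were mostly too dim to test. Of the beta-defensins 2 of 6 probes were tested, of the cystatins 3 of 11, of the BPI-fold proteins 5 of 13 and of the WAP four-disulfide core proteins 4 of 8, while all 11 zinc-finger probes were. Among them Wfdc2 and the zinc-finger gene Zfp334 (-0.19) had an unadjusted p below 0.05. Probes of close relatives can share signal, which was not measured here.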

How the data were processed

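Spot intensity on 6 two-colour arrays was read by the authors by Agilent Feature Extraction, in version 10.7.3.1 on slide 1 and version 10.5.1.1 on slide 2 per the file headers (8.5.1.1 per the submitters' processing notes). The authors' series matrix gives log10 ratios, Cy5 relative to Cy3. Coordinates are mm9, per the file headers.

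Median intensities and local backgrounds were corrected with normexp (offset 50) and normalized by loess in limma 3.58.1 (R 4.3.3). The 1639 control spots and outlier spots had no weight in loess, and outlier spots were left out. Ratios were turned to Paraxis-/- over WT, and dye-swapped arrays were averaged to 3 pairs, following the titles, from which the descriptions of 2 arrays differ. Levels are log2 values after loess and Aquantile. Probes well above background in at least 4 of 6 measurements of either genotype and measured in at least 2 pairs entered lmFit and eBayes (two-sided, null value 0), and p-values were adjusted by Benjamini and Hochberg's method over 28422 probes. Of the member probes tested, 2 had only 2 pairs. The pair ratios come from pools that the labels call separate biological replicates, and the small number of arrays limits precision. Saturated spots stayed in, and 3 member probes had any.

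Gene names were updated from RefSeq, whose build differs, so none of its coordinates were used. Of the member probes, 413 were matched through the accession, 69 through the symbol and 12 through a synonym, and 99 bear the array's own name. Exons and untranslated regions were not annotated. Named were probes past the adjusted threshold or 1.5-fold in all pairs, up to 15 per direction by p, genes within 0.5 Mb, all probes of such genes, and up to 3 members of each list by p, and not all are given. A few others (Norad, Src, Trp53inp2, Acss2, Rrbp1, Ism1 and Stk4 among them) were chosen after their values were seen. The members and lists were chosen with earlier results of these data known. The fit was tested on simulated data. Alternatives changed background correction, normalization, filter, source of ratios, blocking, pairs, probes per gene, window and fold.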

Additional observations from a re-analysis of the deposited data

How the results depend on the processing

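The 2 member probes past the adjusted threshold became 4 after scaling between arrays, 10 with 6 arrays and the pair as a replicate block, 13 without that block, 6 with slide as a block, 0 within slide 2, 1 within 5 Mb and 0 without any one pair. The blocked fit treats dye swaps as correlated measurements. The fit of 6 arrays without the block counts them as independent replicates, which they are not. Counts over the array under these alternatives are not given here, so these member counts have no background beside them. Outside the segment, the share with an unadjusted p below 0.05 in limma was 4.48% in the main fit. It was 6.86% with the pair as a block, 8.55% without that block and 7.26% with slide as a block. The count at 1.5-fold in all pairs was 7, and it was 17 with the scanner's processed signals and with the deposited ratios, 14 after background subtraction, 4 with the brightest probe of each gene, 2 within 5 Mb, 22 at a lower fold threshold and 4 at 2-fold. Outside the segment that share was 0.382%, 0.382% and 0.328% under the first 3 of these, 0.328% without background correction, 0.273% after median centring, and between 0.219% and 0.494% without one pair. The median absolute log2 ratio of members was 0.129 with processed signals and with deposited ratios, 0.130 after background subtraction and 0.0728 with no filter. The count with an unadjusted p below 0.05 was 49 with the brightest probe of each gene, 38 within 5 Mb and between 49 and 69 without one pair. With the brightest probes the member share was 16.3%, beside 4.65% outside the segment. The share within 5 Mb is not given here. Under the 16 alternatives that kept the window, the member share stayed between 11% and 18.8% and the share outside between 3.73% and 8.55%. Not all 16 are distinct. The fit within slide 2 is the fit without pair A, and the deposited ratios are those of the processed signals. The 31 probes called or taken for their smallest p kept their sign under every alternative that gave a value. They had been chosen with one sign in all 3 pairs, so leaving out a pair or adding a block could not change it. The other alternatives reprocessed the same spots. Of the 31, 13 passed the adjusted threshold under at least 1 alternative. For probes of Mapre1, Nfs1 and Vstm2l that was only the fit of 6 arrays without the block. Those of Eif2s2, Itch and Sdc4 passed only in the fits of 6 single arrays, with and without the block. Other named probes were not run singly. Causes of these shifts were not tested. Signal over background limits what can be said of the 104 member probes that were never above it.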
